A study of Mus musculus with 16 samples.

Results

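The genes described here carry iron and cobalamin (vitamin B12) across the intestinal epithelium, or store and release iron inside its cells. They are the 10 genes Slc11a2, Cybrd1, Slc40a1, Heph, Tfrc, Fth1, Ftl1, Hmox1, Cubn and Amn, taken by symbol from the 46078 genes of the deposited count table. All 10 passed the filter on low counts. Each was described over 16 libraries by labelled genotype, and against Slc2a2, which encodes the glucose transporter GLUT2. Slc2a2 is high in proximal and low in distal small intestine and served as a measure of the position along the bowel.

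RNA was sequenced from ileal mucosa of C57Bl/6 mice that lack Slfn3 (Slfn3KO) and of wild type (WT) littermates. The 16 libraries form 4 groups of 4, labelled female Slfn3KO, female WT, male Slfn3KO and male WT. The labels give an age of 8 weeks for every mouse, and the study's methods give an older age. The tissue was the whole mucosa, so fewer cells of a type and less RNA per cell cannot be told apart in any value below.

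Between 20823279 and 30813117 reads per library were counted on genes, so that 3 counts correspond to between 0.100 and 0.151 CPM, which are counts scaled to a common library size, a limit that covers counting error only. The targeted gene, Slfn3, had 0 to 2 counts in each Slfn3KO library and 0 to 19 counts in each WT library, and did not pass the filter. In the libraries labelled female WT 3 and 4 and male WT 3 and 4, Xist and 4 Y-linked genes were those of the sex not named in the label. Labels were kept as deposited. Genotype differences and slopes of several genes are also given without these 4 libraries. Other results, among them the slopes of marker genes and of further iron and cobalamin genes, are given with all libraries only. Whether those hold without the 4 is not shown. All 8 enterocyte markers were detected in every library, with a summed level of 16660 to 46104 CPM, as were all 6 markers of distal bowel, with 3308 to 18046 CPM.

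Dietary iron is reduced at the brush border by the ferric reductase Cybrd1 and enters the enterocyte through the divalent metal transporter Slc11a2. It is held in ferritin, built from the heavy chain Fth1 and the light chain Ftl1, or leaves through ferroportin, Slc40a1, the iron being oxidised by the membrane ferroxidase hephaestin, Heph. Tfrc, the transferrin receptor, takes iron from the blood side and is abundant in dividing cells, and Hmox1, an inducible heme oxygenase, frees iron from heme. Cobalamin bound to intrinsic factor is taken up in the ileum by cubam, a complex of the large receptor cubilin, Cubn, and the small membrane protein amnionless, Amn.

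Several of these transcripts carry iron-responsive elements (IREs), hairpins bound by the iron regulatory proteins when iron is scarce. A hairpin in the 5′ UTR hinders translation and hairpins in the 3′ UTR protect the mRNA from decay. GENCODE M21 transcripts were searched on the sense strand for a C, 5 stem bases, the loop CAGTGN with a last base other than G, and 5 bases that can all pair with the stem, G-T pairs included. Over all their coding transcripts, the motif was found in 4 of the 10 genes, at 3 places in 5′ UTRs and at 4 in the 3′ UTR of Tfrc. Of 21877 genes searched by their longest coding transcript, 0.0731% held it in the 5′ UTR and 0.421% in the 3′ UTR. The search misses elements with an unpaired stem base or another loop. A gene without a match may thus still carry an element, and Tfrc may hold more. The sites are shown because this strict motif is the sequence feature that Fth1, Ftl1, Slc40a1 and Tfrc share. Capitals mark the loop, and coordinates are those of mm10.
Fth1 5′ UTR, chr19:9982732-9982760, plus strand: ttcctgcttcaaCAGTGCttgaacggaac
Ftl1 5′ UTR, chr7:45459779-45459807, minus strand: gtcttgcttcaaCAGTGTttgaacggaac
Slc40a1 5′ UTR, chr1:45925465-45925493, minus strand: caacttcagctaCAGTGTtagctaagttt
Tfrc 3′ UTR, chr16:32631219-32631247, plus strand: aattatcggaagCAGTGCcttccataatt
Tfrc 3′ UTR, chr16:32631598-32631626, plus strand: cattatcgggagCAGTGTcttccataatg
Tfrc 3′ UTR, chr16:32631663-32631691, plus strand: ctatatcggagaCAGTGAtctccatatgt
Tfrc 3′ UTR, chr16:32631710-32631738, plus strand: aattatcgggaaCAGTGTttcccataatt

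Per kilobase of exon, Fth1 was the highest of the 10 genes, with 1239 ± 141 CPM per kb (SD, n = 16). The cubam subunits followed, Amn with 131 ± 43.1 and Cubn with 64.6 ± 22.4 CPM per kb. Amn was above Cubn in 16 of 16 libraries although the proteins act in one complex. Heph had 55.9 ± 12.3, Ftl1 41.1 ± 13.2, Tfrc 25.2 ± 7.66, Slc11a2 13.6 ± 2.26 and Slc40a1 5.06 ± 4.50 CPM per kb. Hmox1 with 0.587 ± 0.296 and Cybrd1 with 0.319 ± 0.136 CPM per kb were the lowest, resting on 518 and 690 counts over all libraries. The ranges over libraries overlapped for each pair of neighbours in this order except Fth1 and Amn.

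The level of Ftl1 is uncertain. Of its stretches of 50 bases, 58.4% also occur in transcripts of 17 other genes, most often the pseudogene Ftl1-ps1, and the header of the count table names no option to count reads with several alignments. The pseudogene Ftl2-ps held 638 counts over the 16 libraries, Ftl1-ps2 13 and Ftl1-ps1 1. Between 0 and 4.27% of the stretches of the other 9 genes were shared.

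**Figure D1:**
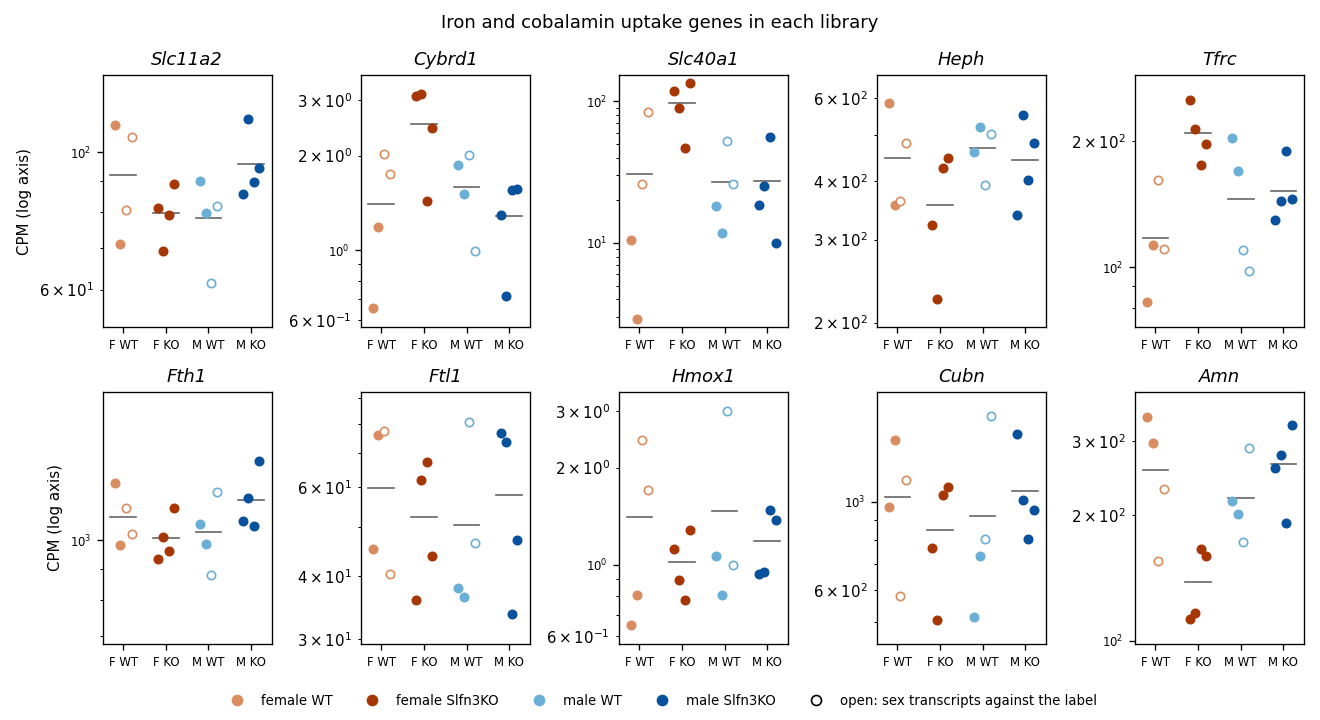
CPM of the 10 genes in each library on log axes, by labelled group (F female, M male, KO Slfn3KO), with 1 point per library and the group mean as a bar; open points are female WT 3 and 4 and male WT 3 and 4. Slc40a1 spanned 2.92 to 134 CPM and Fth1 879 to 1344 CPM.

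How much the genes varied differed widely. Slc40a1 varied most, by 45.8-fold between the lowest and the highest library, and the SD of its log2 CPM, 1.5, was above that of 97.7% of genes tested. Fth1 varied least, by 1.53-fold, with an SD of 0.16 on the log2 scale against a median of 0.32 over all genes tested. Slc11a2 varied by 1.84-fold, and the remaining 7 genes by 2.40-fold to 4.82-fold.

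The first question was whether these genes differ between Slfn3KO and WT mice. With both labelled sexes pooled, none of the 10 passed an adjusted p under 0.05 with a change of at least 1.5-fold in edgeR's quasi-likelihood test, where 0% of 14822 genes did. At an unadjusted p under 0.05 the test passed 1 of the 10, Tfrc, against 11.9% of all genes. That share of all genes was 5.8% without the WT libraries 3 and 4. On all libraries, DESeq2 called 54 genes and none of the 10. The 10 log2 differences had a median of 0.0155, and that of all genes was -0.00366.

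Tfrc (ENSMUSG00000022797, chr16:32608920-32632794, plus strand) was 251, 214, 176 and 197 CPM in female Slfn3KO libraries and 129, 144, 189 and 145 CPM in male Slfn3KO libraries. It was 82.6, 113, 162 and 111 CPM in the libraries labelled female WT and 203, 170, 110 and 98 CPM in those labelled male WT. All 4 female Slfn3KO libraries lay above all 4 female WT libraries, and the males of both genotypes overlapped. The pooled log2 difference was 0.45 (95% interval 0.05 to 0.86, adjusted p = 0.369 in edgeR), and 0.34 (adjusted p = 0.763) without the WT libraries 3 and 4.

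Within each labelled sex, edgeR likewise called none of the 10 genes, nor any of 14064 genes in females or 14124 in males. In libraries labelled female, Tfrc was higher in Slfn3KO by 0.83 on the log2 scale (standard error 0.20, adjusted p = 0.236 in edgeR) and lay without overlap, as did 7.89% of genes. Amn was 113, 117, 166 and 160 CPM in female Slfn3KO and 343, 297, 155 and 231 CPM in female WT libraries, where only the library labelled female WT 3 reached into the Slfn3KO range. Its log2 difference was -0.89 (standard error 0.26, adjusted p = 0.236). These were the 2 of 10 genes with an unadjusted p under 0.05 in females, where 17.1% of all genes passed. DESeq2 called 506 of 14064 genes in females (3.6%), among them Tfrc with 0.82 (adjusted p = 0.0110) and Amn with -0.91 (adjusted p = 0.0317). Without the libraries labelled female WT 3 and 4 edgeR still called no gene, with 1.08 for Tfrc and -1.21 for Amn (adjusted p = 0.109 for both), and 4 of the 10 genes had an unadjusted p under 0.05, Slc40a1 and Cybrd1 being the others, against 24% of all genes. DESeq2, run without them after its calls on all libraries were seen, called 1261 of 14634 genes (8.62%) and the same 4 of the 10. In that fit Tfrc and Amn each had an adjusted p of 6.42e-05, Slc40a1 2.18e-09 and Cybrd1 0.0390. Both fits hold 6 libraries, and the remaining WT libraries, female WT 1 and 2, had 150 and 62.6 CPM of Slc2a2. The female Slfn3KO libraries had 0.516 to 4.31 CPM, so genotype and Slc2a2 cannot be told apart there. With log2 CPM of Slc2a2 as a covariate in edgeR, over all 8 libraries labelled female, the differences were 0.51 for Tfrc (adjusted p = 0.270) and -0.36 for Amn (adjusted p = 0.535). Of the WT libraries in that fit, only female WT 3 and 4, with 1.12 and 2.45 CPM, lay in the Slfn3KO range of Slc2a2. The sex transcripts of both go against the label.

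Slc40a1 had the widest female difference in size, 1.64 on the log2 scale, with an interval of -0.28 to 3.56 that includes 0 (adjusted p = 0.327). It was 118, 89.5, 46.8 and 134 CPM in female Slfn3KO libraries and 10.5, 2.92, 26.0 and 84.0 CPM in female WT libraries. The 2 highest WT values were those of libraries 3 and 4. Without them the difference was 3.85 (adjusted p = 0.109), in a fit where genotype and Slc2a2 cannot be told apart. Cybrd1 differed by 0.83 (interval -0.05 to 1.72, adjusted p = 0.300), and by 1.43 (adjusted p = 0.147) without libraries 3 and 4.

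In libraries labelled male the 10 differences lay between -0.32 for Cybrd1 and 0.30 for Slc11a2, on the log2 scale. Slc11a2 was 85.8 to 113 CPM in Slfn3KO and 61.5 to 89.8 CPM in WT libraries, and the groups overlapped. It was the 1 of 10 genes with an unadjusted p under 0.05 (adjusted p = 0.925 in edgeR), where 3.84% of all genes passed. Without male WT 3 and 4 its difference was 0.18 (adjusted p = 0.790). Cubn, with 0.78 (adjusted p = 0.652), was then the 1 gene of the 10 with an unadjusted p under 0.05, against 7.14% of all genes. DESeq2 called 14 genes in males and none of the 10. Slc40a1 differed by 0.02 with an interval of -1.35 to 1.38, which is too wide to show that the groups were alike, and by 0.88 (adjusted p = 0.811) without male WT 3 and 4.

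The difference between the sexes, female minus male, was tested as an interaction. It was called for none of the 10 genes and for 0% of 14822 genes, and 4 of the 10 had an unadjusted p under 0.05, against 11.1% of all genes. DESeq2 called 19 genes and none of the 10. The 4 were Amn with -1.15 on the log2 scale (standard error 0.34), Cybrd1 with 1.16 (0.53), Tfrc with 0.77 (0.33) and Slc11a2 with -0.50 (0.21), each with an adjusted p between 0.441 and 0.446 in edgeR. Without the WT libraries 3 and 4 edgeR called 359 of 15093 genes (2.38%), among them Amn with -1.55 (adjusted p = 0.0442) and Tfrc with 1.38 (adjusted p = 0.0433). At an unadjusted p under 0.05 it passed 5 of the 10 and 26.9% of all genes. Its female WT side is female WT 1 and 2, both higher in Slc2a2 than every female Slfn3KO library.

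**Figure D2:**
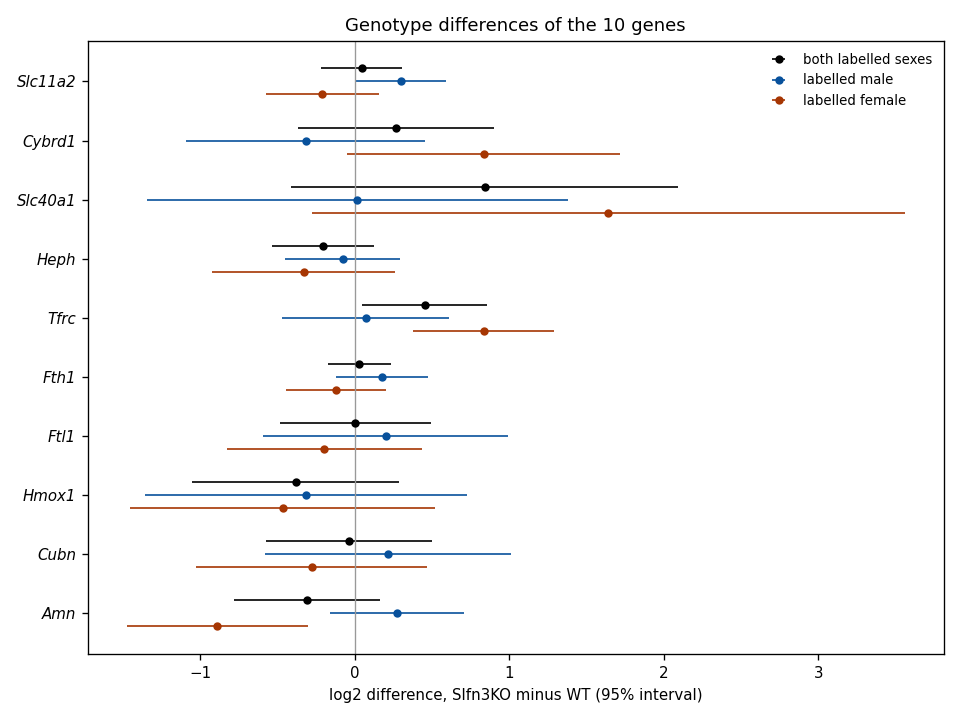
Log2 difference of each of the 10 genes, Slfn3KO minus WT, as a point with its 95% interval, for both labelled sexes pooled, labelled males and labelled females. The intervals leave 0 for Tfrc pooled and in females, for Amn in females and, narrowly, for Slc11a2 in males, all before adjustment over all genes.

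The groups were unequal in Slc2a2. It was 0.516, 0.572, 4.31 and 1.04 CPM in the female Slfn3KO libraries and 23.3, 52.1, 10.2 and 194 CPM in the male Slfn3KO libraries. It was 150, 62.6, 1.12 and 2.45 CPM in the libraries labelled female WT and 32.9, 140, 2.68 and 95.1 CPM in those labelled male WT. All 4 female Slfn3KO libraries were thus at the low end, together with female WT 3 and 4 and male WT 3. In females genotype and Slc2a2 moved together in part. Female WT 1 and 2 lay above every female Slfn3KO library, and female WT 3 and 4 lay within the Slfn3KO range. The paper treats Slc2a2 (Glut2) as a differentiation marker and reports lower levels by qPCR in Slfn3KO females. Its own RNA sequencing showed no significant change in such markers. Position along the bowel and an effect of genotype on Slc2a2 cannot be told apart here.

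Each gene was then tested for its slope, the log2 change per doubling of Slc2a2, with genotype and labelled sex as covariates. Of 14821 genes, 30.7% had an adjusted p under 0.05, 15.8% with a positive and 14.9% with a negative slope. Of the 10 genes, 4 did. Without the WT libraries 3 and 4 it was also 4, with Tfrc in place of Hmox1, beside 26.8% of all genes. In the whole set of libraries Amn rose with Slc2a2, and Slc40a1, Cybrd1 and Hmox1 fell. As a check of Slc2a2 as a measure of position, the proximal markers Gata4, Fabp1, Apoa1, Apoa4, Lct, Adh1 and Khk rose. Of 6 distal markers, 2 (Slc10a2 and Nr1h4) fell. Summed distal markers were lowest, 3308 to 4383 CPM, in the libraries highest in Slc2a2, male WT 2, female WT 1 and male Slfn3KO 4. They were highest, 18046 and 15399 CPM, in female WT 2 and male WT 4, with 62.6 and 95.1 CPM of Slc2a2. The female Slfn3KO libraries, low in Slc2a2, had distal sums of 8520 to 11504.5 CPM. These sums weigh Fabp6 most, with 36770 to 371503 counts per library against 22509 to 43930 for Slc51a, the next. The slope of Fabp6 itself was -0.09 (adjusted p = 0.496 in edgeR). The slope also went with 6 of 8 enterocyte markers, which rose, and with 6 of the 7 tested macrophage markers and 2 of 6 crypt markers (Mki67 and Top2a), which fell.

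Amn (ENSMUSG00000021278, chr12:111271111-111276426, plus strand) rose by 0.16 per doubling of Slc2a2 (standard error 0.03, adjusted p = 0.000531 in edgeR). It was 113 CPM in the library with the lowest Slc2a2, female Slfn3KO 1, and 328 CPM in the one with the highest, male Slfn3KO 4, and its highest value, 343 CPM, was in female WT 1. The slope was 0.17 within the 8 Slfn3KO libraries (adjusted p = 0.115) and 0.12 within the 8 WT libraries (adjusted p = 0.0479). It was 0.22 without the WT libraries 3 and 4 (adjusted p = 0.00290) and 0.13 with the 4 labelled groups as a covariate (adjusted p = 0.00208), a fit added after the values of Slc2a2 by group were seen. Summed enterocyte markers were 16660 to 30978 CPM in female Slfn3KO, 25086 to 46104 CPM in female WT, 26989 to 38204 CPM in male Slfn3KO and 27664 to 40151 CPM in male WT libraries. These ranges overlapped between all 4 groups, and the part of enterocyte content in the slope was not tested.

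Cubn (ENSMUSG00000026726, chr2:13276338-13491813, minus strand), the partner of Amn, had a slope of 0.09 (interval -0.02 to 0.21, adjusted p = 0.182). It was 507 to 1085 CPM in female Slfn3KO, 581 to 1423 CPM in female WT, 808 to 1476 CPM in male Slfn3KO and 515 to 1636 CPM in male WT libraries, and all 4 groups overlapped. Over the 16 libraries, log2 CPM of Cubn and Amn had a Pearson r of 0.591, a description of libraries that share their position and cell makeup.

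Slc40a1 (ENSMUSG00000025993, chr1:45908068-45926523, minus strand) fell by 0.44 per doubling of Slc2a2 (standard error 0.09, adjusted p = 0.00228), the steepest slope of the 10. It was 46.8 to 134 CPM in the 4 female Slfn3KO libraries, which were low in Slc2a2, and 9.92, 10.5 and 11.8 CPM in the 3 libraries with the highest Slc2a2. In male Slfn3KO libraries it was 18.6, 25.1, 56.0 and 9.92 CPM, and in male WT libraries 18.3, 11.8, 52.1 and 25.9 CPM. The slope was -0.49 within Slfn3KO libraries (adjusted p = 0.119), -0.40 within WT libraries (adjusted p = 0.0814) and -0.47 without the WT libraries 3 and 4 (adjusted p = 0.0103). The direction was thus the same in both genotypes, and neither set of 8 libraries passed the threshold alone.

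Ferroportin is also made by macrophages that recycle red cells, so macrophage markers are given beside it. Their summed level was 39.2 to 69.4 CPM in female Slfn3KO, 42.4 to 91.0 CPM in female WT, 37.6 to 80.0 CPM in male Slfn3KO and 41.0 to 106 CPM in male WT libraries, and Cd163 of these 8 markers was at 0 counts in 7 libraries. Of the 7 tested macrophage markers, 6 fell with Slc2a2, as Slc40a1 did. The steepest was Adgre1 with -0.17 (adjusted p = 0.00288 in edgeR) and the flattest of the 6 was Mrc1 with -0.10 (adjusted p = 0.027). In libraries labelled female, 6 of the 7 were lower in Slfn3KO and 1 was higher, with none called. Slc40a1 was higher there by 1.64 on the log2 scale, also without a call. The part of these cells in the slope was not tested.

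Cybrd1 (ENSMUSG00000027015, chr2:71117923-71142926, plus strand) fell by 0.18 per doubling (standard error 0.05, adjusted p = 0.0104). It was 3.10, 3.15, 1.44 and 2.45 CPM in female Slfn3KO libraries and 0.652, 1.18, 2.03 and 1.75 CPM in female WT libraries. In males it was 1.30, 0.714, 1.55 and 1.57 CPM in Slfn3KO and 1.87, 1.51, 2.0 and 0.997 CPM in WT libraries. It was low throughout, at 13 to 77 counts per library. The slope was -0.24 without the WT libraries 3 and 4 (adjusted p = 0.0268) but lost the call within Slfn3KO libraries (-0.14, adjusted p = 0.543), within WT libraries (-0.16, adjusted p = 0.0897), with the replicate number as a block (-0.23, adjusted p = 0.0623) and without female WT 1 (-0.15, adjusted p = 0.0751).

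Hmox1 (ENSMUSG00000005413, chr8:75093591-75100596, plus strand) fell by 0.19 per doubling (standard error 0.05, adjusted p = 0.00951), and this rested on few libraries. It was 2.99 CPM in the library labelled male WT 3, 2.44 CPM in female WT 3 and 1.71 CPM in female WT 4, and between 0.652 and 1.48 CPM in the other 13. Without the WT libraries 3 and 4 the slope was -0.04 (adjusted p = 0.587), and within Slfn3KO libraries -0.05 (adjusted p = 0.816). It also lost the call without covariates (-0.11, adjusted p = 0.0947), with the replicate number as a block (-0.15, adjusted p = 0.168), without male WT 3 alone (-0.16, adjusted p = 0.0758) and, narrowly, without female WT 1 (-0.19, adjusted p = 0.0505). It kept the call within the 8 WT libraries, which hold the 3 highest values. The 3 libraries highest in Hmox1 were also the 3 highest in the summed level of 8 B cell follicle markers, at 762, 374 and 492 CPM, against 1.91 to 162 CPM in the other 13. Macrophage markers were 106, 91.0 and 76.4 CPM in those 3, and the part of either cell type in the result was not tested. Of the B cell markers, Cr2 was at 0 counts in 2 libraries.

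**Figure D3:**
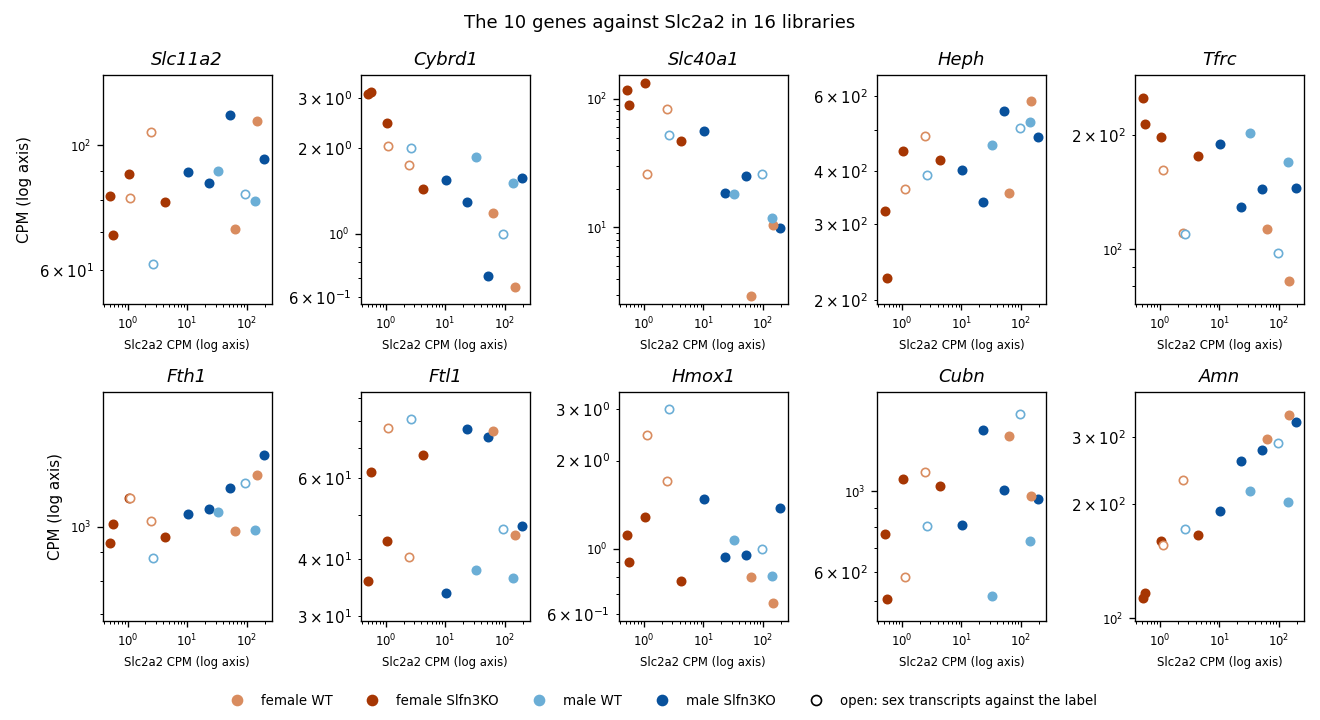
CPM of each of the 10 genes against CPM of Slc2a2 in the 16 libraries, both on log axes, coloured by labelled group, with open points for the WT libraries 3 and 4. From the library lowest in Slc2a2 to the highest, Amn goes from 113 to 328 CPM and Slc40a1 from 118 to 9.92 CPM, and in Hmox1 the 3 highest points are open.

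The other 6 genes did not pass the adjusted threshold for the slope. Heph had 0.07 (adjusted p = 0.0777) and Fth1 0.04 (adjusted p = 0.0935), both with an unadjusted p under 0.05, as had 43.2% of all genes. Slc11a2 had 0.05 (adjusted p = 0.143), and Ftl1 had -0.02 (interval -0.13 to 0.09, adjusted p = 0.788). Over the 16 libraries Heph (ENSMUSG00000031209, chrX:96455359-96574485, plus strand) was 225 to 584 CPM and Fth1 (ENSMUSG00000024661, chr19:9982703-9985092, plus strand) 879 to 1344 CPM. Slc11a2 (ENSMUSG00000023030, chr15:100387898-100425072, minus strand) was 61.5 to 113 CPM and Ftl1 (ENSMUSG00000050708, chr7:45457944-45459884, minus strand) 33.7 to 80.7 CPM. Heph passed with the replicate number as a block (0.09, adjusted p = 0.0280), without female Slfn3KO 4 (0.08, adjusted p = 0.0478) and without female WT 2 (0.09, adjusted p = 0.0290). Without female WT 2, Slc11a2 (0.07, adjusted p = 0.0474) and Fth1 (0.05, adjusted p = 0.0493) passed as well. With the proximal minus distal marker score in place of Slc2a2, Heph (0.07, adjusted p = 0.0339) and Slc11a2 (0.06, adjusted p = 0.0437) passed, and with DESeq2 Fth1 did (0.04, adjusted p = 0.0371).

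Tfrc had a slope of -0.08 (adjusted p = 0.124), -0.13 (adjusted p = 0.0362) without male WT 3 alone, and -0.18 (adjusted p = 0.00578) without the WT libraries 3 and 4. Markers of crypts and dividing cells are given beside it. The summed level of 6 such markers, Mki67, Top2a, Lgr5, Olfm4, Ascl2 and Ccnb1, was 427 to 581 CPM in female Slfn3KO libraries, 110 to 408 CPM in female WT, 268 to 508 CPM in male Slfn3KO and 144 to 466 CPM in male WT libraries. The female groups did not overlap in this sum, as in Tfrc itself and in 7.89% of all genes tested in females. Mki67 (-0.15, adjusted p = 0.0173) and Top2a (-0.15, adjusted p = 0.0378) fell with Slc2a2, and the other 4 did not pass. The library lowest in the sum, female WT 1, was the lowest in Tfrc, and the part of crypt cells in the female difference and in the slope was not tested.

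**Figure D4:**
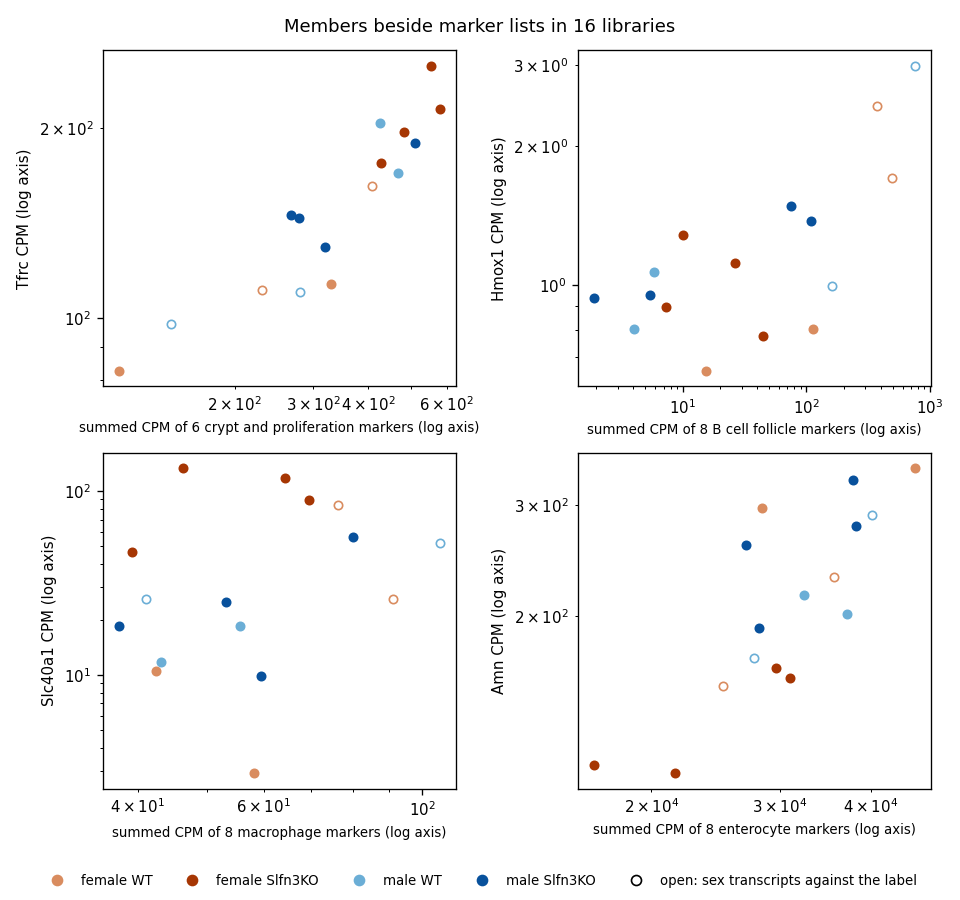
CPM of Tfrc, Hmox1, Slc40a1 and Amn against the summed CPM of crypt, B cell follicle, macrophage and enterocyte markers in 16 libraries, on log axes, coloured by labelled group. Tfrc is 82.6 CPM at the lowest crypt sum, 110 CPM, and 214 CPM at the highest, 581 CPM, and the 3 libraries highest in Hmox1 are the 3 highest in B cell markers.

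The genes whose log2 CPM was most like each gene's over the 16 libraries were found by Pearson r among all genes tested, with no test. For Tfrc they were Mmp7 (r = 0.984), a Paneth cell protease, Lrig1 (0.970), a marker of crypt progenitors, and Pla2g2a (0.963), a Paneth cell phospholipase. For Heph they were Cdh17 (0.978), an adhesion protein of intestinal epithelium, Clca4b (0.975) and Suco (0.973). For Amn they were Edf1 (0.974), Necap2 (0.973) and Crip1 (0.972), and for Cubn Mep1a (0.934), a brush border protease, Atrnl1 (0.925) and Dnmbp (0.922).

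The remaining genes had less close companions or low counts. For Cybrd1 they were Mettl1 (0.944), Cep83 (0.942) and Trmt61a (0.941), and for Hmox1 Blnk (0.913), a B cell adaptor, Nemp2 (0.900) and Fam49b (0.897). For Slc40a1 they were Kdm3b (0.886), Pde11a (0.873) and Abca12 (0.856), and for Fth1 Hcn2 (0.883), Sugp1 (0.852) and Gga1 (0.836). For Slc11a2 they were Sppl3 (0.842), Efnb1 (0.839) and Ncstn (0.834), and for Ftl1 Mterf1a (0.777), Hps5 (0.749) and Kcnc1 (0.739). Among the 10 genes themselves, the closest opposite pair was Cybrd1 and Amn (r = -0.849).

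Other genes of iron and cobalamin handling were read from 4 lists, 59 genes of which 53 passed the filter. None was called in a genotype comparison. On Slc2a2, 11 rose and 7 fell, 34.0% of those tested beside 30.7% of all genes.

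Among 12 tested genes of iron and heme transport, 3 rose and 3 fell. Slc46a1, the proton-coupled folate carrier that also moves heme, rose by 0.17 per doubling (adjusted p = 0.00944), Mon1a by 0.08 (adjusted p = 0.0136) and the metal transporter Slc39a14 by 0.05 (adjusted p = 0.0251). Ceruloplasmin, Cp, a ferroxidase related to Heph, fell by 0.36 (adjusted p = 0.0105), the heme transporter Slc48a1 by 0.08 (adjusted p = 0.0102) and the exporter Abcg2 by 0.07 (adjusted p = 0.0477). Heph itself had a positive slope, 0.07, that did not pass.

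Among 15 tested genes of iron handling, 3 rose and none fell. These were the iron regulatory proteins Aco1 (0.09, adjusted p = 0.00558) and Ireb2 (0.05, adjusted p = 0.0279), which bind the hairpins shown above, and Fbxl5 (0.11, adjusted p = 0.000505), the ubiquitin ligase subunit that directs Ireb2 to degradation. Their slopes were small beside that of Slc40a1. Among 12 tested heme genes 3 rose and none fell, the heme oxygenase Hmox2 by 0.04 (adjusted p = 0.00343), the heme synthesis enzymes Alas1 by 0.11 (adjusted p = 0.0126) and Alad by 0.05 (adjusted p = 0.0458).

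Among 14 tested cobalamin genes, 2 rose and 4 fell. Transcobalamin, Tcn2, which carries cobalamin in blood, rose by 0.10 (adjusted p = 0.00121), and Abcd4, which takes part in its exit from the lysosome, by 0.09 (adjusted p = 0.000199). The transporter Abcc1 fell by 0.19 (adjusted p = 0.000663), methionine synthase Mtr by 0.13 (adjusted p = 0.0260), its reductase Mtrr by 0.12 (adjusted p = 0.00350) and Mmab, which makes adenosylcobalamin, by 0.08 (adjusted p = 0.0229). Intrinsic factor, Cblif, and Lrp2 did not pass the filter.

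**Figure D5:**
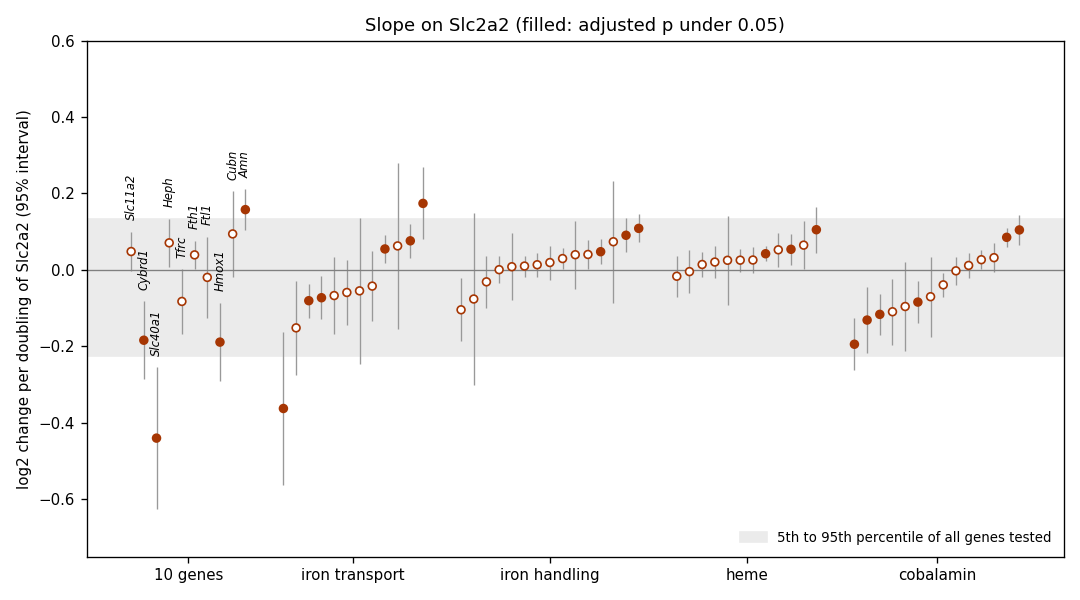
Log2 change per doubling of Slc2a2 as points with 95% intervals for the 10 genes, named, and for 53 genes of 4 lists, with filled points at an adjusted p under 0.05 and a grey band from the 5th to the 95th percentile of all genes tested. Filled among the 10 are Amn above 0 and Slc40a1, Cybrd1 and Hmox1 below it.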

How the data were processed

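Ileal mucosa RNA of 16 mice was sequenced as single reads from a stranded library kit. The authors used cutadapt for trimming and STAR for alignment to mm10. The deposited table holds raw counts per gene, not normalized. Its header names featureCounts with reverse-stranded counting, the labels' processing notes list featureCounts 1.4.6 and DESeq2 1.22.2, and the paper names another counter, HTSeq. Exon length comes from the same table, and symbols from GENCODE M21 matched 45143 of 46078 identifiers. No column of another sample was present.

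Groups followed the deposited labels. Counts were tested with edgeR 4.0.16 in R 4.3.3 (filterByExpr by labelled group, TMM factors, robust quasi-likelihood F test, Benjamini-Hochberg adjustment over all genes tested). Genotype comparisons had labelled sex as covariate when pooled and none within a sex, and calls needed an adjusted p under 0.05 and 1.5-fold. For the slope, log2 CPM of Slc2a2 (prior count 2) was the term, genotype and labelled sex were covariates, and Slc2a2 itself was not tested. Standard errors are the absolute log2 difference divided by the square root of F. CPM use TMM factors. The authors' DESeq2 is an alternative here, as version 1.42.0. The members and lists were chosen with earlier results of these data known. The p-values measure the spread between these mice.

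Named genes are the 10, Slc2a2, Slfn3, sex transcripts, list genes with an adjusted p under 0.05 and, per gene, the 3 highest Pearson r. As no list had a call by genotype, the gene with the lowest p in the pooled comparison is named from each among the other observations. Single marker genes were named after their values were seen. Over genes, the deviations of same-numbered libraries of the 2 genotypes from their group means correlated positively in all 4 male pairs (r = 0.229, 0.317, 0.518 and 0.138) and in 1 of 4 female pairs (-0.362, 0.143, -0.337 and -0.113). The numbers come from the labels and mark different mice.

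On simulated counts with 100 genes changed 2-fold and 100 changed 4-fold, edgeR recovered 79% and 96% of them among 14638 genes in the pooled comparison. It recovered 62% and 86% among 14061 genes in females, 51% and 93% among 14319 in males, and 21% and 72% among 14614 for the interaction. Simulated slopes of 0.2 and 0.4 were recovered in 70% and 88% of cases among 14603 genes. False calls numbered 2 to 11 per comparison. Genes were simulated independently, without the position and cell makeup that the libraries share, and genes of the lowest levels were not changed. Recovery in the real data can therefore be lower. A further gene of the proximal marker list is not reported here.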

Additional observations from a re-analysis of the deposited data

Results flagged for a closer look

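Hmox1 in the libraries labelled male WT stood out because 1 library lay far from the other 3. It was 2.99 CPM in male WT 3, and the nearest of the others was 1.07 CPM, a gap of 0.880 of the whole range, above Dixon's critical value of 0.829 for 4 samples. The rule was applied to 40 groups of 4 libraries, and chance flags about 1 in 20. The library is 1 of the 4 whose sex transcripts go against the label. Without it the slope of Hmox1 on Slc2a2 was -0.16 (adjusted p = 0.0758 in edgeR), and its male log2 difference turned from -0.32 to 0.33.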

How the results depend on the processing

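The counts of genes called depended on the tool and the libraries. DESeq2 called 54 genes pooled, 14 in males and 19 for the interaction, with none of the 10. In females it called 506 (3.6% of all genes) with 2 of the 10. Without the WT libraries 3 and 4 this was 1261 (8.62%) with 4 of the 10. For the slope DESeq2 called 5196 (35.1%) with 5 of the 10. With the marker score in place of Slc2a2, edgeR's slope called 4108 (27.7%) with 6 of the 10. Slc2a2 as a covariate gave 1 gene pooled and 96 in females. Without the WT libraries 3 and 4 the interaction called 359 genes (2.38%) with 2 of the 10. The cause of these changes was not tested. Leaving out 1 library gave 0 genes and 0 of the 10 in every genotype comparison. For the slope it gave 1931 genes (12.8%) without female WT 1 to 4898 (32.5%) without female WT 2. These were also the lowest and highest for the 10, at 2 and 7. The slope called 26 genes (0.184%) and 0 of the 10 within Slfn3KO libraries, and 1485 (10.5%) and 2 within WT libraries, fits with fewer samples. With a replicate block it called 1793 genes (12.1%) and 3 of the 10. The replicate block called 0 genes in every genotype comparison and changed no call of the 10 beyond those of Cybrd1, Hmox1 and Heph for the slope. Over single genes, 396 values under other settings and 601 without 1 library kept their direction and their side of the threshold. Direction turned for 20 and 31, a call was gained for 14 and 5 and lost for 10 and 3. None of the 10 was called by genotype in the main fits, so keeping the side of the threshold says little there.

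Directions turned where differences were small. Without the WT libraries 3 and 4, Hmox1 was 0.40 pooled, 0.34 in males, 0.47 (0.45 with DESeq2) in females and 0.14 for the interaction, Tfrc was -0.29 in males, Cubn 0.0887 and Slc11a2 -0.0106 pooled, and the slope of Ftl1 was 0.12. With Slc2a2 as a covariate, Cubn was 0.13 pooled and 0.11 in females, Ftl1 -0.0183 pooled and Heph 0.00612 for the interaction. With a replicate block, Cubn was 0.0186 pooled, Slc40a1 -0.0258 in males and the slope of Ftl1 0.000714. Within Slfn3KO libraries the slope of Ftl1 was 0.11. Pooled, Ftl1 was -0.00568 with at least 10 counts in every library, -0.000295 with DESeq2 and -0.000314 with RLE factors.

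Leaving out 1 library moved Hmox1 between -0.77 and 0.25 for the interaction and between -0.52 and 0.33 in males, Heph between -0.20 and 0.0272, Slc40a1 between -0.60 and 0.58 and Tfrc between -0.0852 and 0.27 in males. Pooled, Cubn lay between -0.15 and 0.13, Fth1 between -0.0216 and 0.0715, Ftl1 between -0.10 and 0.13 and Slc11a2 between -0.0251 and 0.11. The slope of Ftl1 lay between -0.0572 and 0.0385. Hmox1 and Cybrd1 rest on 13 to 88 counts a library, which limits their precision.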

Other observations

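In the genotype comparisons of the other iron and cobalamin genes, 5 of 53 had an unadjusted p under 0.05 when both labelled sexes were pooled, beside 11.9% of all genes, and 11 of 52 in females, beside 17.1%. When pooled, Flvcr1, a heme exporter, had a log2 difference of -1.20 (interval -2.20 to -0.20, adjusted p = 0.336 in edgeR), the lowest p of its list. The lowest pooled p of the other lists were those of Pcbp2, an iron chaperone, with 0.21 (adjusted p = 0.398), Urod, an enzyme of heme synthesis, with 0.24 (adjusted p = 0.414), and Lrpap1, a chaperone of LDL receptor family proteins, with 0.22 (adjusted p = 0.335).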
